A study of Homo sapiens with 5 samples.

Results

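The heat shock protein and DNAJ co-chaperone families were taken as every gene whose symbol began with HSPA, HSPB, HSP90, DNAJA, DNAJB or DNAJC, with a number after the first 2 and the last 3, or was HSPD1, HSPE1 or HSPH1. This rule, which used no measured value, gave 78 of the 19716 genes with a read in any of 5 RNA libraries. Of the 78, 4 were read-through or antisense transcripts, 72 had reads in every library, and 55 reached 5 TPM (a read count per transcript length, expressed so that each library has the same total) in at least 1 library. The members were grouped by the place where their proteins work, as far as it is textbook knowledge: 40 in the cytosol and nucleus, 14 in the endoplasmic reticulum (ER), 8 in mitochondria, and 12 elsewhere or not assigned.

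HSP70 proteins bind unfolded stretches of other proteins in a cycle driven by ATP, J proteins of the DNAJ families deliver clients and start ATP hydrolysis, and HSP110 proteins such as HSPH1 exchange the nucleotide. HSP90 finishes the folding of many kinases and receptors, small HSPs hold aggregating proteins, and HSPD1 with HSPE1 forms the folding chamber of mitochondria. The transcription factor HSF1 switches on the inducible cytosolic members when unfolded protein builds up in the cytosol, while the unfolded protein response switches on ER members such as HSPA5.

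All cells were HEK293T, a human embryonic kidney line. They were transfected with X-tremeGENE 9 and 1 ug of plasmid and collected after 48 h. In 4 groups the plasmids carried 5 sgRNAs against uPA and 1 fusion of nuclease-dead Cas9 (dCas9) and blue fluorescent protein (BFP), under a PGK promoter. The fusion ended in EGFP, which methylates nothing, or in the catalytic domain of a methyltransferase. This was the maintenance methyltransferase DNMT1 or a de novo methyltransferase (DNMT3A or DNMT3B). The authors reported that the DNMT1 fusion, like the EGFP fusion, did not significantly raise methylation at the uPA promoter. Each library is called here by its fusion, such as dCas9-BFP-DNMT1. The control received pUC19, a plasmid with none of these parts. Sorting for BFP is written for every library although pUC19 encodes no BFP, so the fusion, the guides and the sort cannot be told apart in a comparison with the control. Each group was 1 library, so a test on reads compares those libraries, not the conditions, and no difference between single libraries has a replicate check. A call between 2 single libraries therefore shows a difference larger than read sampling and no more. These are bulk samples, in which more cells expressing a gene and more RNA per cell cannot be told apart.

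Library totals were 26.2 M to 36.1 M reads. DNMT1, DNMT3A and DNMT3B each stood at 14582 TPM or more in the library of their own fusion and at 175 TPM or less in the others, as labelled. All 6 marker genes set for HEK293T were above 1 TPM in every library. Of 11 markers of blood, liver, epithelium, stroma and muscle, 9 were at most 1 TPM in every library, and the sum of all 11 was 3.76 to 7.64 TPM. Among 11597 genes of at least 5 TPM in some library, 5.32% were at least 1.5-fold higher in pUC19 than in every other library and 2.75% at least 1.5-fold lower, against 0.164% that were 1.5-fold above the rest in the dCas9-BFP-DNMT1 library.

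The upstream sequences of the 6 members that stood highest in the dCas9-BFP-DNMT1 library are shown first. Each of these sequences held a pair of inverted GAA and TTC units, the letters that HSF1 is known to read. They were taken from RefSeq promoter windows (build GRCh38.p14), of which the 250 bases before the start were searched on both strands for GAANNTTC and TTCNNGAA, shown in capitals, and located by exact match on GRCh37, the build of the files.
HSPA1A, chr6:31783202-31783233, plus strand, in no annotated gene: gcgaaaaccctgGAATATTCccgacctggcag
HSPA1B, chr6:31795398-31795429, plus strand, in no annotated gene: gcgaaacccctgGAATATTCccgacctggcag
HSPA6, chr1:161494244-161494280, plus strand, in a non-exonic part of a long non-coding RNA gene: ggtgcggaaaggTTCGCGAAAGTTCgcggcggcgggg
DNAJB1, chr19:14629237-14629298, minus strand, in a non-exonic part of DNAJB1 and of TECR on the other strand: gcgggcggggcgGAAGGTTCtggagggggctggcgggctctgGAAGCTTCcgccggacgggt
HSP90AA1, chr14:102553430-102553481, minus strand, in a non-exonic part of HSP90AA1: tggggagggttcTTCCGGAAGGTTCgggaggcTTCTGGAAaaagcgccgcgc
HSPB1, chr7:75931796-75931827, plus strand, in no annotated gene: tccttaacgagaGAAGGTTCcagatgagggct

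HSPA1A and HSPA1B differed at 1 of these 32 bases, and in HSPA6 and HSP90AA1 3 units followed one another without a gap. A window was matched for 14744 of the 19716 genes and for 68 of the 78 members. A pair of units was found for 12.3% of all matched genes, for 18 of 37 members of the cytosol and nucleus, for 2 of 8 mitochondrial members and for 0 of 13 ER members. Genes with several start sites had several windows and so more chances of a match. A match is a run of letters, not a measured binding site, and HSPH1, HSPA2 and DNAJB2 had none in this window. The 6 members shown were picked by their levels in these data, and whether HSF1 acted on any member was not tested.

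The inducible cytosolic HSP70 genes were highest in the dCas9-BFP-DNMT1 library. HSPA1B (chr6:31795515-31798031), an intronless HSP70 gene that is a main product of the heat shock response, was at 1961 TPM with dCas9-BFP-DNMT1, 129.6 with dCas9-BFP-DNMT3A, 234 with dCas9-BFP-DNMT3B, 155 with dCas9-BFP-EGFP and 251 with pUC19. HSPA1A (chr6:31783320-31785723), its near-identical neighbour, was at 160.2, 10.5, 18.8, 13.3 and 19.4 TPM in the same order. HSPA6 (chr1:161494330-161496684), a strictly inducible HSP70, was at 11.5, 1.15, 1.47, 0.698 and 0.235 TPM. For all 3 genes the dCas9-BFP-DNMT1 library was above every other library, and the lowest library was dCas9-BFP-DNMT3A for HSPA1A and HSPA1B but pUC19 for HSPA6.

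Against pUC19, HSPA1B was 7.79-fold, HSPA1A 8.23-fold and HSPA6 34.6-fold higher in the dCas9-BFP-DNMT1 library on the scale of TPM + 0.1, and against dCas9-BFP-EGFP 12.6-fold, 11.9-fold and 14.5-fold. HSPA6 had 379 reads with dCas9-BFP-DNMT1 against 10 with pUC19, a 49.4-fold ratio of reads scaled by library total, with a 95% counting interval of 26.6 to 103.9. In the dCas9-BFP-DNMT3A library HSPA1B was 0.516-fold and HSPA1A 0.544-fold of pUC19, short of a 2-fold decrease, while HSPA6 was 3.72-fold higher and passed. HSPA6 was also called with dCas9-BFP-DNMT3B, at 4.67-fold, where HSPA1B and HSPA1A were at 0.930-fold and 0.972-fold.

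HSPA1A and HSPA1B share most of their sequence, and only uniquely mapped reads were counted, so each value rests on the parts in which the transcripts differ. HSPA1B had 12.1 to 13.5 times the reads of HSPA1A in every library, and covered bases were 50.6% to 54.1% of HSPA1B and 18.5% to 47.1% of HSPA1A. Since reads could not be split further, the level of either gene is uncertain, and the sum of both was 2121 TPM with dCas9-BFP-DNMT1 against 140.1 to 271 TPM in the other 4 libraries.

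Among the 11597 genes of at least 5 TPM in some library, none other than DNMT1, which the fusion itself encodes, exceeded these 3 in its margin over the next highest library. The ratio of the dCas9-BFP-DNMT1 library to the highest of the others was 8.27 for HSPA1A, 7.84 for HSPA6 and 7.80 for HSPA1B, and the next of these genes, the small nucleolar RNA SNORA76A, was at 3.43. HSPB1, HSP90AA1 and DNAJB1 followed among the members at 1.85, 1.79 and 1.55. At a margin of 2-fold this gave 3 of 55 members of at least 5 TPM, against 0.0517% of all such genes, and at 1.5-fold 6 of 55, against 0.164%. In the libraries of dCas9-BFP-DNMT3A, dCas9-BFP-DNMT3B and dCas9-BFP-EGFP 0 of 55 members were 1.5-fold above or below every other library, and few genes were: 0.112% above and 0.233% below with dCas9-BFP-DNMT3A, 0.155% and 0.181% with dCas9-BFP-DNMT3B, and 0.888% and 0.569% with dCas9-BFP-EGFP. A count of 0 in 55 is near these shares.

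The partners DNAJB1, HSPH1 and DNAJA1 were highest in the same library, at smaller ratios. DNAJB1 (chr19:14625581-14671203), the main J protein partner of inducible HSP70, was at 499.8 TPM with dCas9-BFP-DNMT1, 265 with dCas9-BFP-DNMT3A, 321 with dCas9-BFP-DNMT3B, 188 with dCas9-BFP-EGFP and 92.2 with pUC19. HSPH1 (chr13:31709110-31736525), the exchange factor, was at 319, 212, 222, 163 and 137 TPM. DNAJA1, a farnesylated J protein of the cytosol, was at 503, 463, 449.9, 401 and 286 TPM. All 3 were highest with dCas9-BFP-DNMT1 and lowest with pUC19, but DNAJA1 differed by 1.76-fold at most and was called in no pair. DNAJA2, another cytosolic J protein of that class, was lowest with dCas9-BFP-DNMT1 and highest with pUC19, at 70.2, 80.1, 78.7, 71.5 and 99.0 TPM, and was called in no pair either.

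DNAJB1 passed against pUC19 in all 4 fusion libraries, at 5.41-fold with dCas9-BFP-DNMT1, 2.87-fold with dCas9-BFP-DNMT3A, 3.48-fold with dCas9-BFP-DNMT3B and 2.04-fold with dCas9-BFP-EGFP, and was 2.65-fold higher with dCas9-BFP-DNMT1 than with dCas9-BFP-EGFP. HSPH1 passed in the dCas9-BFP-DNMT1 library alone, at 2.34-fold of pUC19, and was 1.95-fold of dCas9-BFP-EGFP.

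The HSP90 pair of the cytosol divided. HSP90AA1 (chr14:102547079-102606036), the inducible form, was at 2715.5 TPM with dCas9-BFP-DNMT1, 1099 with dCas9-BFP-DNMT3A, 1329.6 with dCas9-BFP-DNMT3B, 1521 with dCas9-BFP-EGFP and 1068 with pUC19, a 2.54-fold difference between the first and the last. HSP90AB1, the constitutive form, was at 2085, 1326, 1474, 1465 and 1699.8 TPM, and its ratios to pUC19 stayed between 0.780 and 1.23. HSPA8, the constitutive HSP70 and the member with the highest level in 4 of the 5 libraries, was at 2671, 2242, 2384, 1822 and 1702 TPM, 1.57-fold of pUC19 with dCas9-BFP-DNMT1. HSPA8 and HSP90AB1 therefore had the same highest library as their inducible relatives but never reached 2-fold.

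A run of 3 of the same units is shown here for HSPA8, which was called in no comparison and whose window held 2 such runs. HSPA8, chr11:122933054-122933082, minus strand, in an untranslated exon of another HSPA8 transcript: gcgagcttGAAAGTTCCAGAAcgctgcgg. Runs of at least 3 units were found for 0.495% of all genes with a window and for 6 of 68 members, namely DNAJB6, HSP90AA1, HSP90AB1, HSPA6, HSPA8 and HSPD1, of which 2 stood 1.5-fold above every other library with dCas9-BFP-DNMT1.

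Among small HSPs the picture rested on 1 abundant gene. HSPB1 (chr7:75931990-75933612), also called HSP27, was at 501 TPM with dCas9-BFP-DNMT1, 239 with dCas9-BFP-DNMT3A, 270.5 with dCas9-BFP-DNMT3B, 209 with dCas9-BFP-EGFP and 216 with pUC19, so that the first was 2.32-fold of the last and the other 3 were between 0.969 and 1.25-fold. HSPB8, a partner of BAG3 in selective autophagy, was low at 1.53, 2.29, 1.99, 0.646 and 0.671 TPM, on 15 to 60 reads. It was called higher with dCas9-BFP-DNMT3A and dCas9-BFP-DNMT3B against both pUC19 (3.10-fold and 2.71-fold) and dCas9-BFP-EGFP (3.20-fold and 2.80-fold). HSPB3 had 15 reads with dCas9-BFP-DNMT1 and 2 with pUC19, a 9.78-fold ratio of reads scaled by library total, whose 95% counting interval ran from 2.27 to 88.1. HSPB11, an intraflagellar transport subunit rather than a chaperone, was at 98.1, 83.6, 95.9, 90.8 and 125 TPM and was called in no pair, and HSPB2, HSPB6, HSPB7 and HSPB9 stayed at 2.74 TPM or less and were not called.

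**Figure D1:**
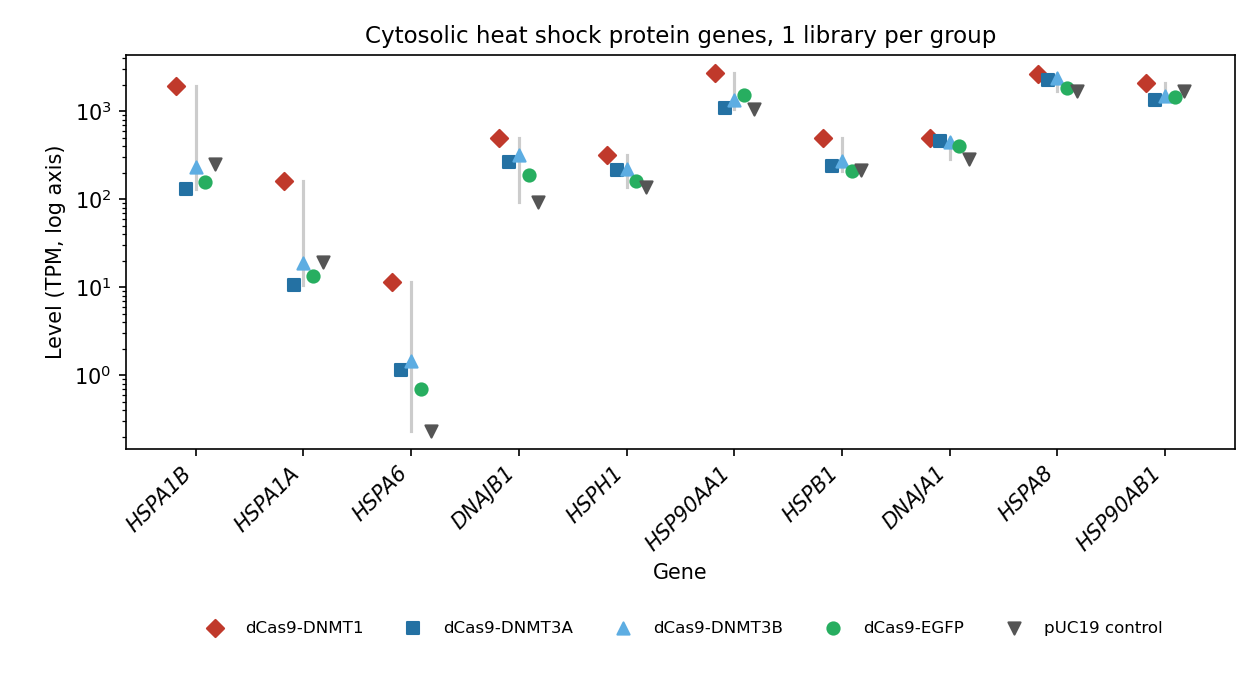
Level in TPM (log axis) of 10 cytosolic members in each of the 5 libraries, 1 point per library, with a grey line over the range, and with library names shortened in all figures (dCas9-DNMT1 for dCas9-BFP-DNMT1). The dCas9-BFP-DNMT1 point is the highest for all 10 genes, from 11.5 TPM for HSPA6 to 2715.5 TPM for HSP90AA1. It stands clear of the others for HSPA1B, HSPA1A and HSPA6. These 10 were picked for the figure. Of all 28 cytosolic and nuclear members of at least 5 TPM, 13 were highest in that library.

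Over all 78 members, TPM summed to 16572 with dCas9-BFP-DNMT1 against 10439 to 11208 in the other libraries. The cytosolic and nuclear members summed to 13239 TPM against 7098 to 8589, a ratio of 1.87 to pUC19, while the ER members were at 1.07 and the mitochondrial members at 0.969 of pUC19. In reads, members took 2.04% of the dCas9-BFP-DNMT1 library and 1.23% to 1.30% of the others. Of 28 cytosolic and nuclear members of at least 5 TPM, 13 were highest in the dCas9-BFP-DNMT1 library, which was the highest library for 7.29% of all 11597 such genes, and 13 were lowest in pUC19, the lowest library for 24.4%.

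The comparison of each fusion library with pUC19 covers the fusion, its guides, the sort and any other difference between those single libraries together. A gene was called when an exact binomial test of its reads gave an adjusted p of at most 0.001 over all genes and the ratio of TPM + 0.1 was at least 2. With dCas9-BFP-DNMT1, 10 of 77 members tested were called higher and 2 lower, against 1.53% and 3.63% of all genes. With dCas9-BFP-DNMT3A 7 of 78 were higher and 1 lower (all genes 4.40% and 4.96%), with dCas9-BFP-DNMT3B 5 of 76 and 2 (4.47% and 4.29%), and with dCas9-BFP-EGFP 4 of 76 and 1 (2.60% and 3.10%). The share of members called higher was furthest above that of all genes with dCas9-BFP-DNMT1. The 1 or 2 members called lower in each library were too few to set members apart from all genes. All 4 comparisons used the same pUC19 library.

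By compartment, cytosolic and nuclear members gave 10 of 39, 6 of 40, 5 of 38 and 4 of 38 higher calls in the order of the libraries above. They gave no lower call. ER members gave 1 lower call of 14 each time, and mitochondrial members gave 0 calls of 8. The 12 members elsewhere or not assigned gave 1 lower, 1 higher, 1 lower and 0 calls. Over all genes, 1.53% to 4.47% were called higher and 3.10% to 4.96% lower. The ER and mitochondrial counts and the absence of lower cytosolic calls are near these shares. The median log2 ratio of members to pUC19 was 0.07, 0.04, -0.04 and -0.03, beside -0.15, -0.06, -0.05 and -0.0032 over all genes tested. With TMM scaling, which moved the median of all genes by 0.12 in the comparison of dCas9-BFP-DNMT1 with pUC19, that of members was 0.19 and that of all genes -0.03, and all 12 member calls were kept. With dCas9-BFP-EGFP 4 of 5 calls were kept, without DNAJB4, whose ratio of 2.01 was just inside the threshold.

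**Figure D2:**
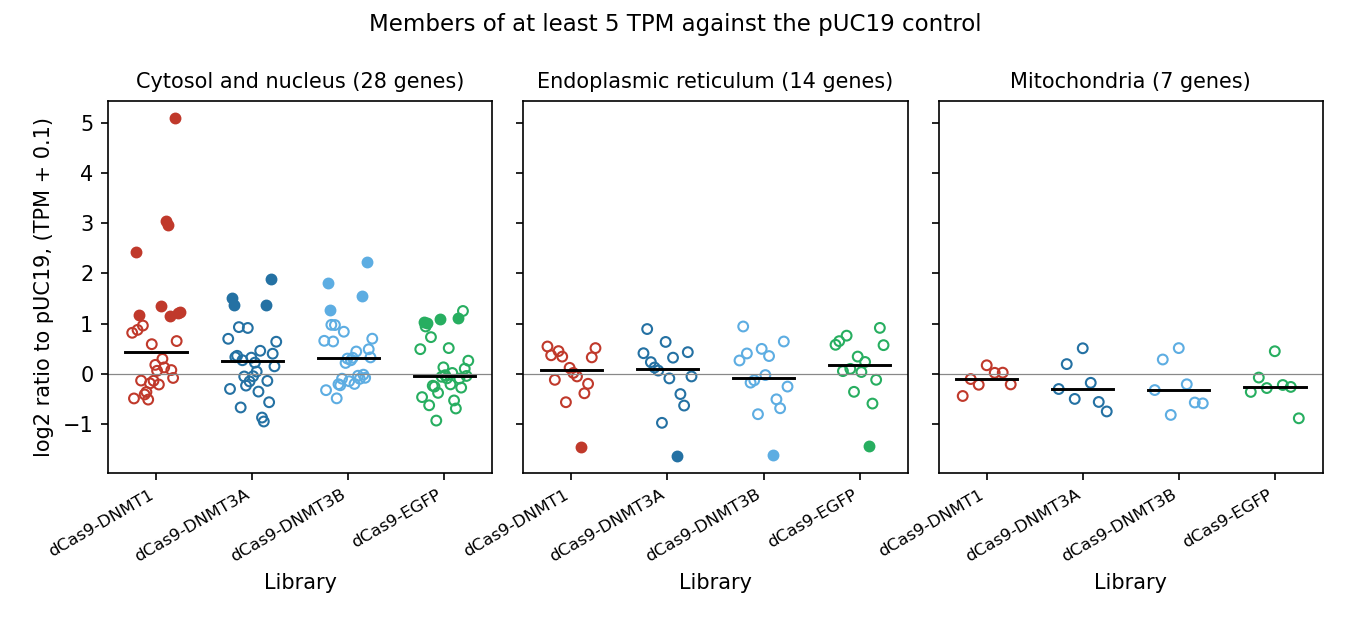
log2 ratio of TPM + 0.1 to pUC19 (vertical axis) for members of at least 5 TPM in each fusion library (horizontal axis), by compartment, with 28, 14 and 7 genes. Filled points were called, open points were not, and bars are medians, and filled points are above 0 in the cytosol panel, up to 5.11 for HSPA6, while the ER panel has 1 filled point per library, DNAJC25, between -1.64 and -1.45.

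A second group of members was low in the control rather than high with dCas9-BFP-DNMT1. DNAJB2, a J protein with ubiquitin-binding motifs, was at 33.8 TPM with dCas9-BFP-DNMT1, 47.9 with dCas9-BFP-DNMT3A, 44.5 with dCas9-BFP-DNMT3B, 35.4 with dCas9-BFP-EGFP and 18.4 with pUC19. HSPA2, an HSP70 best known from spermatogenesis, was at 7.78, 9.16, 10.4, 7.58 and 3.47 TPM. DNAJC5, the cysteine string protein of secretory vesicles, was at 81.6, 102, 97.0, 115 and 54.3 TPM. The 4 fusion libraries lay together and above the control for each of them.

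HSPA2 was called higher in all 4 fusion libraries (2.21, 2.60, 2.94 and 2.15-fold), DNAJB2 with dCas9-BFP-DNMT3A (2.59-fold) and dCas9-BFP-DNMT3B (2.41-fold), and DNAJC5 with dCas9-BFP-EGFP (2.12-fold). DNAJB4, a cytosolic J protein, was at 22.7, 12.6, 19.8, 20.2 and 10.0 TPM in the same order and was called with dCas9-BFP-DNMT1 (2.25-fold) and dCas9-BFP-EGFP (2.01-fold). DNAJB6, a suppressor of polyglutamine aggregation, was at 309, 303, 312, 264 and 159 TPM and never reached 2-fold. In all, 6 of 55 members (DNAJB1, DNAJB2, DNAJB6, DNAJC5, HSPA2 and HSPA6) were at least 1.5-fold lower in pUC19 than in every other library, against 2.75% of all genes of at least 5 TPM.

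DNAJC25 was the 1 member in the opposite position, against 5.32% of such genes. This J protein of the ER membrane (chr9:114393614-114416631) was at 15.2 TPM with pUC19 and at 5.46, 4.80, 4.87 and 5.49 TPM in the fusion libraries, in the order above, on 608 against 138 to 170 reads. Its ratio to pUC19 was 0.322 to 0.366, and it was called lower each time. A read-through transcript, DNAJC25-GNG10, shares sequence with it and had 3 reads, all with pUC19, so the division of reads between them is uncertain. HSPA12B, a distant HSP70 relative of endothelium, was called lower with dCas9-BFP-DNMT1 (0.349-fold) and dCas9-BFP-DNMT3B (0.272-fold) on 7 to 50 reads.

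Below 5 TPM, DNAJB13, an axonemal J protein, was called higher with dCas9-BFP-DNMT3A (3.49-fold, 31 against 9 reads), as was HSP90B2P, a processed pseudogene of HSP90B1 (2.77-fold, 35 against 13 reads). Reads on a pseudogene can come from its parent, so the second value is uncertain.

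**Figure D3:**
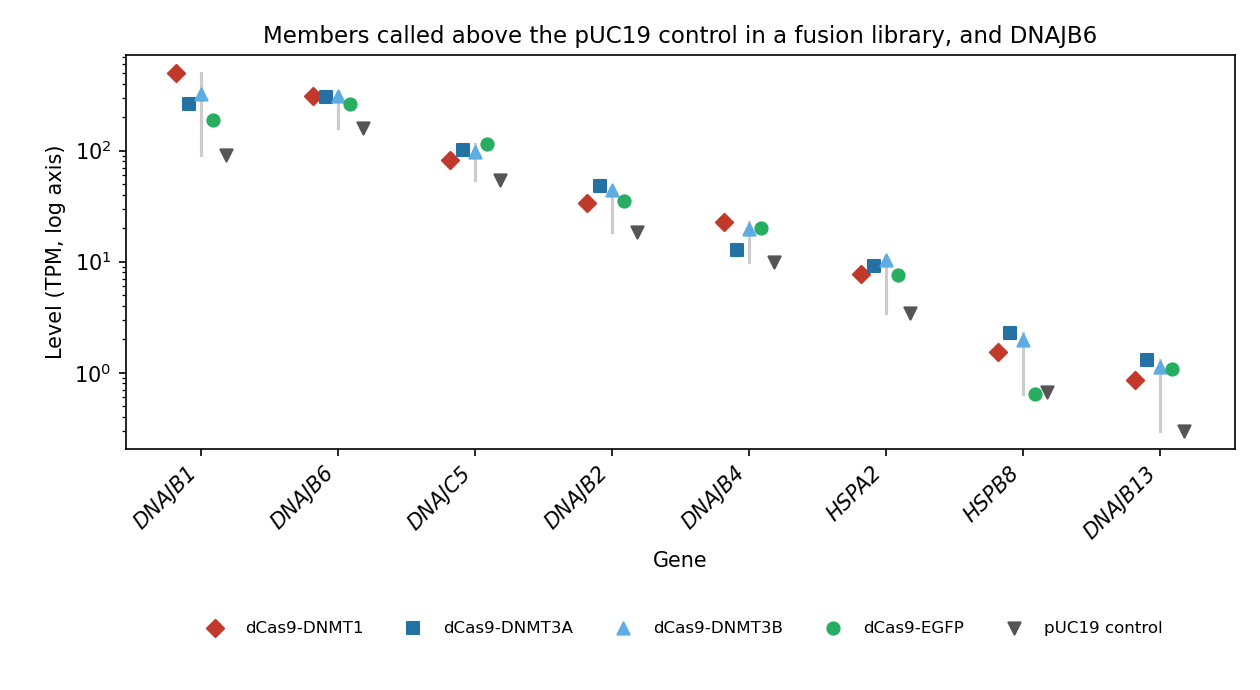
Level in TPM (log axis) of 8 members in each of the 5 libraries, 1 point per library, with a grey line over the range. The genes are 7 members called above pUC19 in a fusion library, and DNAJB6. The pUC19 point is the lowest for all but HSPB8, where dCas9-BFP-EGFP (0.646 TPM) lies just below it (0.671 TPM).

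With the 4 fusion libraries taken as a group against the 1 control library, whose spread is assumed to be that among the 4 different fusions, edgeR's quasi-likelihood test called 0 of 71 members higher and 1 lower, against 0.0937% and 0.644% of all genes. The one was DNAJC25 (log2 fold change -1.50 ± 0.24, SE, adjusted p = 0.0377), and without dCas9-BFP-DNMT3A or dCas9-BFP-EGFP its adjusted p was 0.0594 and 0.0558. At an unadjusted p under 0.05 there were 14 of 71 members. DESeq2 called 7, DNAJC25 and, higher, DNAJB1, DNAJB2, DNAJB6, DNAJB12, DNAJC5 and HSPA2, beside 6.63% of all genes. For HSPA1B the fold change was 1.42 ± 1.46 (SE) on the log2 scale in the edgeR fit (adjusted p = 0.639), since 3 of the 4 fusion libraries were below the control.

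Comparing the methyltransferase fusions with dCas9-BFP-EGFP sets a methyltransferase against EGFP under the same guides, with a single library on each side. With dCas9-BFP-DNMT1, 5 of 73 members were called higher (HSPA1A, HSPA1B, HSPA6, DNAJB1 and HSPB1) and 0 lower, against 0.473% and 0.966% of all genes. With dCas9-BFP-DNMT3A, HSPB8 was higher and DNAJC15, a mitochondrial import J protein at 0.856 TPM or less, lower, out of 74 members (all genes 2.02% and 1.95%). With dCas9-BFP-DNMT3B, HSPB8 and DNAJB5 were higher and the antisense transcript DNAJC9-AS1 lower, out of 72 (2.09% and 1.42%). Between dCas9-BFP-DNMT3A and dCas9-BFP-DNMT3B 0 of 74 members were called by the exact test, beside 0.123% and 0.0913% of all genes. All 3 comparisons used the same dCas9-BFP-EGFP library.

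DNAJB5, a J protein of the cytosol and nucleus, was at 8.14 TPM with dCas9-BFP-DNMT1, 11.5 with dCas9-BFP-DNMT3A, 14.1 with dCas9-BFP-DNMT3B, 5.75 with dCas9-BFP-EGFP and 8.97 with pUC19. Its 2.42-fold difference between dCas9-BFP-DNMT3B and dCas9-BFP-EGFP came from a value above and a value below the control. The library kit and counting were not stated to keep strand, so reads of DNAJC9-AS1 and of DNAJC9, which lies against it, cannot be told apart.

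Of the 14 ER members, 3 were called lower in a fit of both de novo methyltransferase libraries together against those of dCas9-BFP-DNMT1 and dCas9-BFP-EGFP. That fit called 4.15% of all genes lower, and the exact test called none of the 3 in a pair with dCas9-BFP-EGFP. HSPA5 (chr9:127997132-128003661), also called BiP, the HSP70 of the ER, was at 422 TPM with dCas9-BFP-DNMT1, 285 with dCas9-BFP-DNMT3A, 248 with dCas9-BFP-DNMT3B, 439.8 with dCas9-BFP-EGFP and 296 with pUC19. HSP90B1 (chr12:104323885-104347709), or GRP94, the HSP90 of the ER, was at 503, 372, 358, 531 and 579 TPM. DNAJC10 (chr2:183580982-183659191), a J protein that reduces disulfides for disposal of misfolded protein, was at 32.1, 24.1, 27.2, 37.1 and 47.8 TPM. In each case the dCas9-BFP-DNMT3A and dCas9-BFP-DNMT3B values were below the dCas9-BFP-DNMT1 and dCas9-BFP-EGFP values, but pUC19 lay near the low pair for HSPA5 and at the top for HSP90B1 and DNAJC10.

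A fit of dCas9-BFP-DNMT3A and dCas9-BFP-DNMT3B against dCas9-BFP-DNMT1 and dCas9-BFP-EGFP, 2 libraries on each side, called 0 of 68 members higher and 4 lower with edgeR's quasi-likelihood test, against 6.90% and 4.15% of all genes. The 4 were HSPA5 (-0.75 ± 0.13 on the log2 scale, SE, adjusted p = 0.00994), HSP90B1 (-0.56 ± 0.12, adjusted p = 0.0195), DNAJC10 (-0.48 ± 0.13, adjusted p = 0.0408) and HSPA1L (-2.25 ± 0.58, adjusted p = 0.0397). At an unadjusted p under 0.05 there were 21 of 68. DESeq2 called 1 higher (DNAJB5) and 5 lower, beside 16.5% of all genes called in either direction. Without dCas9-BFP-DNMT3A or dCas9-BFP-DNMT3B, which leaves 1 library on that side assumed to vary like the others, edgeR called none of the 4. The log2 fold changes were then -0.86 and -0.64 for HSPA5, -0.59 and -0.52 for HSP90B1 and -0.40 and -0.56 for DNAJC10. DNAJC10 was also not called without the filter on low counts (adjusted p = 0.0676) or with a GC and length correction (adjusted p = 0.0679).

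HSPA1L, a testis HSP70 next to HSPA1A that resembles it in sequence, rested on 4 to 23 reads and on 0.123 to 0.728 TPM, and leaving out the DNMT1, DNMT3A or DNMT3B fusion its adjusted p was 0.129, 0.353 and 0.268. Without the dCas9-BFP-DNMT1 library, which leaves 1 library on that side, the log2 fold changes of DNAJB1 and HSPH1 were above 0. With all 4 libraries they were -0.32 and -0.23 and not called. Without dCas9-BFP-EGFP, HSPA1A, HSPA1B and HSPA6 were lower with dCas9-BFP-DNMT3A and dCas9-BFP-DNMT3B. HSPA1B itself was at -2.66 ± 0.86 (SE, adjusted p = 0.0779) with all 4 libraries, of which dCas9-BFP-EGFP was at the level of the other side.

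Letters of the ER stress element, CCAAT and CCACG 9 bases apart, were searched in the same windows, since the unfolded protein response acts on ER members through it. They were found for 21 of 14744 genes (0.142%), and among members for HSPA5 and HSP90B1 alone, shown here with both blocks in capitals. 
HSPA5, chr9:128003665-128003693, minus strand, in no annotated gene: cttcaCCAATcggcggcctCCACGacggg
HSP90B1, chr12:104323989-104324017, plus strand, in an untranslated exon of another HSP90B1 transcript and an exon of TTC41P on the other strand: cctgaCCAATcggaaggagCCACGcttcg

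The ER members other than these 3 and DNAJC25 were called by neither the exact test nor edgeR. DNAJB9, a J protein that releases misfolded clients for degradation, was at 9.42, 7.48, 6.05, 11.7 and 6.87 TPM in the order of the libraries above and at -0.69 ± 0.20 (SE, adjusted p = 0.0582) in the fit of 2 against 2. DNAJB11, a soluble partner of HSPA5, was at 124, 113, 102, 127 and 85.2 TPM, and DNAJC3, an inhibitor of the kinase PERK, was at 19.5, 19.3, 17.9, 16.9 and 25.6 TPM. HSPA13, a microsomal HSP70, was at 52.0, 55.9, 64.8, 78.2 and 41.5 TPM. Some ER members had the opposite sign in the fit of 2 against 2. DNAJB12, a J protein of the ER membrane, was at 44.6, 64.2, 66.5, 54.2 and 34.6 TPM and at 0.35 ± 0.12 on the log2 scale (SE, adjusted p = 0.0928), and DNAJB14, DNAJC14 and DNAJC18 were at 0.30, 0.28 and 0.19. No ER member reached 1.5-fold above every other library with dCas9-BFP-DNMT1, where the 14 together were at 1332 TPM against 1026 to 1427 TPM.

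**Figure D4:**
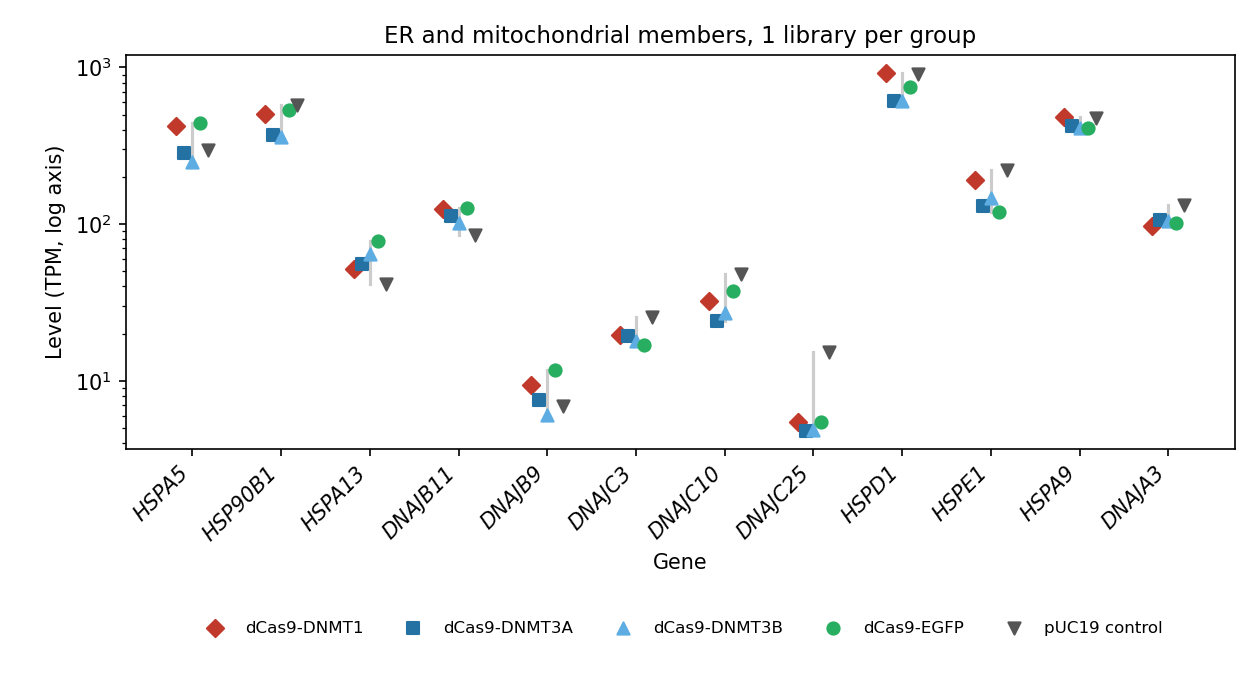
Level in TPM (log axis) of 8 ER members, then 4 mitochondrial members, in each of the 5 libraries, 1 point per library, with a grey line over the range. The dCas9-BFP-DNMT3A and dCas9-BFP-DNMT3B points lie below dCas9-BFP-DNMT1 and dCas9-BFP-EGFP for HSPA5, HSP90B1 and DNAJC10, and the pUC19 point of DNAJC25 (15.2 TPM) stands above the other 4.

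The mitochondrial chaperones did not share the excess of the dCas9-BFP-DNMT1 library over pUC19. HSPD1, or HSP60, was at 919.7 TPM with dCas9-BFP-DNMT1, 613 with dCas9-BFP-DNMT3A, 608 with dCas9-BFP-DNMT3B, 755 with dCas9-BFP-EGFP and 907 with pUC19. HSPE1, its lid HSP10, was at 191, 131, 147, 119 and 221 TPM, and HSPA9, the mitochondrial HSP70, was at 483, 421, 412, 408 and 478 TPM. The dCas9-BFP-DNMT1 and pUC19 libraries were the highest pair for all 3, and their ratio was 1.01, 0.861 and 1.01. HSPD1 was at 0.676 and 0.670-fold of pUC19 with dCas9-BFP-DNMT3A and dCas9-BFP-DNMT3B, and in the fit of 2 against 2 at -0.52 ± 0.15 (SE, adjusted p = 0.0574). DNAJA3, a J protein partner of HSPA9, was at 96.5, 106, 105, 102 and 132 TPM and was called in no pair. The HSPD1 window held a run of 4 heat shock units, longer than those printed above. HSPD1, chr2:198364787-198364814, minus strand, in an untranslated exon of another HSPD1 transcript: gcattTTCTGGAAAGTTCTGGAAccgag.

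Other HSP members of at least 5 TPM were called in no comparison. HSPA4, an HSP110, was at 301, 259, 282, 268 and 287 TPM, and its relative HSPA4L at 59.0, 42.1, 59.1, 51.6 and 62.6 TPM. HSPA14, a ribosome-bound HSP70, was at 91.0, 115, 113, 84.3 and 83.5 TPM, and HSPA12A at 16.3, 18.3, 20.8, 20.3 and 25.3 TPM. As a family, DNAJB genes summed to 1064, 839, 903, 719.7 and 427 TPM, 1.68 to 2.49 times pUC19 in the fusion libraries, whereas the 27 DNAJC genes summed to 1259 to 1350 TPM in all 5.

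Among 43 genes of the same pathway outside these families, 2 were called higher with dCas9-BFP-DNMT1 than with pUC19 and 0 lower, beside 1.53% and 3.63% of all genes. They were SERPINH1, or HSP47, a collagen chaperone of the ER (150.7, 91.3, 76.5, 89.4 and 64.5 TPM), and CRYAB, a small HSP, which was at 2.46, 0.114, 0.643, 0 and 0.0908 TPM. HSF1 itself was at 103, 114, 115, 107 and 93.0 TPM and was called in no comparison, as were the 8 subunits of the TRiC chaperonin. None of the 43 was called against pUC19 in the libraries of dCas9-BFP-DNMT3A and dCas9-BFP-DNMT3B, and 1 was called higher with dCas9-BFP-EGFP, the mitochondrial exchange factor GRPEL2 (84.3 against 38.9 TPM).

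Against dCas9-BFP-EGFP, CRYAB was called higher and GRPEL2 lower with dCas9-BFP-DNMT1, beside 0.473% and 0.966% of all genes. BAG3, the exchange factor that works with HSPB8, was called higher with dCas9-BFP-DNMT3B alone, beside 2.09% of all genes. It was at 116, 115, 132, 65.2 and 67.45 TPM in the order of the libraries above. The dCas9-BFP-DNMT1 and dCas9-BFP-DNMT3A values were thus also above dCas9-BFP-EGFP, but short of 2-fold. The fit of 2 against 2 called 3 lower and 0 higher of these partners, beside 4.15% and 6.90% of all genes: HYOU1, the exchange factor of HSPA5 in the ER (-0.65 on the log2 scale, edgeR, adjusted p = 0.0119), BAG6 (-0.44, adjusted p = 0.0391) and UNC45A (-0.47, adjusted p = 0.0346). HYOU1 was at 157 and 155 TPM with dCas9-BFP-DNMT1 and dCas9-BFP-EGFP, 103 and 104 TPM with dCas9-BFP-DNMT3A and dCas9-BFP-DNMT3B, and 149 TPM with pUC19.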

How the data were processed

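Poly(A) RNA of 5 libraries was fragmented and sequenced on an Ion Proton, and the authors aligned filtered reads with tmap to RefSeq transcripts of hg19 and kept unique alignments. The read count per gene was deposited by the authors without normalization. The TPM deposited by the authors was recomputed from counts and gene lengths without a difference, and the deposited coverage is in percent of the transcript. Genes absent from a table were set to 0. Unique counting lowers genes with near-identical copies.

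Each pair of libraries was compared by a two-sided exact conditional binomial test of reads given both totals (scipy), adjusted by Benjamini-Hochberg over all genes that had reads in the pair, at an adjusted p of at most 0.001 and a ratio of TPM + 0.1 of at least 2, which understates low genes. edgeR's quasi-likelihood test (TMM, filterByExpr, adjusted p under 0.05) was fitted across all genes. R 4.3.3, edgeR 4.0.16 and DESeq2 1.42.0 were used. SEs are the fold change divided by the root of F. Intervals are 95% exact binomial and cover counting error only.

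Named genes were HSP members of at least 5 TPM in any library, a fixed list of inducible and ER members, members called, and called genes of a fixed list of 43 partners. The members and lists were chosen with earlier results of these data known. Positions are from GENCODE on GRCh37. Alternatives included DESeq2, looser thresholds, TMM scaling, the edgeR exact test with spread (0.2 as coefficient of variation) assumed between libraries, 1 TPM as pseudocount or minimum, median-ratio size factors, no filter, a GC and length correction, and leaving out libraries. The tests were checked on simulated counts. The level of 1 marker gene is not reported here.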

Additional observations from a re-analysis of the deposited data

Results flagged for a closer look

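In 10 cases a member was called by the direct exact test between a methyltransferase fusion and dCas9-BFP-EGFP. Each side was a single library, with the same dCas9-BFP-EGFP library throughout, so the difference is between libraries. Calls were 5 of 73 members with dCas9-BFP-DNMT1, beside 0.473% of all genes higher and 0.966% lower. They were 2 of 74 with dCas9-BFP-DNMT3A (2.02% and 1.95%) and 3 of 72 with dCas9-BFP-DNMT3B (2.09% and 1.42%), near those shares. For dCas9-BFP-DNMT1 the log2 ratios to dCas9-BFP-EGFP were 3.86 for HSPA6, 3.66 for HSPA1B, 3.58 for HSPA1A, 1.41 for DNAJB1 and 1.26 for HSPB1. For dCas9-BFP-DNMT3A they were 1.68 for HSPB8 and -1.69 for DNAJC15, and for dCas9-BFP-DNMT3B 1.48 for HSPB8, 1.27 for DNAJB5 and -1.05 for DNAJC9-AS1. HSPB8, DNAJC15 and DNAJC9-AS1 were below 3 TPM in every library.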

How the results depend on the processing

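With an assumed coefficient of variation of 0.2 between libraries, the exact test of edgeR called 4 members for dCas9-BFP-DNMT1 against pUC19 (12 in the report) and 3 against dCas9-BFP-EGFP (5), and 0 for the other fusions against pUC19 or dCas9-BFP-EGFP. At a ratio of 1.5, calls against pUC19 were 19, 20, 19 and 15 in the order of the libraries above, against dCas9-BFP-EGFP 9, 8 and 8, and between dCas9-BFP-DNMT3A and dCas9-BFP-DNMT3B 3. At an adjusted p of at most 0.05 they were 9 for dCas9-BFP-EGFP against pUC19, 4 and 5 for dCas9-BFP-DNMT3A and dCas9-BFP-DNMT3B against dCas9-BFP-EGFP, and 1 between the 2. With a pseudocount of 1 TPM they were 4, 4 and 3 for dCas9-BFP-DNMT3A, dCas9-BFP-DNMT3B and dCas9-BFP-EGFP against pUC19, and 0 and 1 for the first pair against dCas9-BFP-EGFP, where a minimum of 1 TPM left 1 for dCas9-BFP-DNMT3A. All counts in this paragraph are of members alone. The share of all genes under each setting is not given here, so these counts do not set members apart from other genes.

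For 4 fusions against pUC19, DESeq2 called 7 and leaving out a library gave 0 to 1. For 2 against 2, no filter gave 2 and leaving out a library gave 0 to 21. Of all genes, 5.43% were called in the 2 against 2 fit without the filter. Leaving out a library there moved the share of all genes called up and down together with the member count. The spread of member counts across those fits therefore does not set members apart from other genes. In the same fits DNAJB1 lay between -0.89 and 0.65 and HSPH1 between -0.68 and 0.42 on the log2 scale, above 0 without dCas9-BFP-DNMT1. Margins over every other library, with TMM scaling added after seeing the data, gave 4 members at 2-fold and 7 at 1.5-fold for dCas9-BFP-DNMT1. The share of all genes at these margins under TMM scaling is not given here. The causes were not tested. With 1 library per group, no call on a single library is checked by a replicate, and below about 1 TPM calls rest on few reads.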
